A study of Mus musculus with 8 samples.

Results

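Cpeb3 encodes a cytoplasmic polyadenylation element binding protein, and 17 of the 27391 circular RNAs listed in these mouse hearts come from it. They are the circles whose host gene in the deposited table is Cpeb3, chosen by gene name alone. The gene itself was picked with earlier results of these data known, namely that its main circle is abundant and stood lower after pressure overload. Its levels are therefore given as a description, and their p-values, taken from a fit over all circles, are no independent evidence. A circular RNA is a closed loop that forms when splicing joins the 3' end of an exon to the 5' end of itself or of an exon upstream, and a back-spliced read is one that crosses this closing junction.

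The study set hearts of male wild-type mice 8 weeks after transverse aortic constriction (TAC), a narrowing of the aorta that loads the left ventricle with pressure, against hearts taken 8 weeks after a sham operation. Each group held 4 animals and 4 libraries. The labels name no treatment other than the surgery and no age of the animals. The libraries held 33132, 1119, 21074 and 36120 back-spliced reads in TAC replicates 1 to 4 and 40796, 3963, 17890 and 100142 in sham replicates 1 to 4. TAC replicate 2 and sham replicate 2 are thus far shallower than the rest. Circles of heart muscle genes were plentiful, with 12 of 13 cardiomyocyte markers (all but Pln) having a circle and summed levels of 329 to 1832 normalised reads in TAC and 230.2 to 881 in sham. Neuronal and Schwann cell markers had 17 reads in all, with summed levels of 0 to 2.54 in TAC and 0 to 1.66 in sham. Of the neuronal markers, Map2, Snap25, Rbfox3, Syt1, Grin2b, Gria1 and Gria2 had no circle. Fibroblast markers had 32 reads from 5 of 7 genes (Postn and Fn1 had no circle), and their summed level, 0 to 1.49 in TAC and 1.66 to 4.54 in sham, was lower in every TAC library, as that of the main Cpeb3 circle was. The sham maximum of 4.54 is 1 read of the shallow sham replicate 2, and 1 read of TAC replicate 2 would be 5.77. The separation is thus at the limit of counting in the shallow libraries. The part of these markers in the Cpeb3 values was not tested. Summed levels of endothelial markers (0 to 49.0 in TAC, 11.4 to 40.9 in sham), leukocyte markers (11.5 to 23.5 in TAC, 7.58 to 18.2 in sham), smooth muscle markers (0 to 1.27 in TAC, 0 in sham) and erythroid markers (0 to 0.636 in TAC, 0 in sham) overlapped.

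CPEB proteins bind U-rich elements in the 3' ends of messenger RNAs and hold back or release their translation, in part by recruiting enzymes that shorten or lengthen the poly(A) tail. CPEB3 has been studied mainly in neurons, where in mice it represses the messages of glutamate receptor subunits and takes part in memory. The N-terminal part of the protein is rich in glutamine and can aggregate, and the C-terminal part carries a tandem pair of RNA recognition motifs followed by a zinc-binding domain. What circles of this gene do is not addressed by these data.

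All 17 circles could be placed on 1 transcript of 11 exons and 716 codons (RefSeq NM_001290826 in the table, matched to GENCODE M21 on mm10), with both ends at exon borders. No circle contained exon 1 or exon 11, the exons that hold the transcript's ends. The circle of exons 8 to 10 held 1904 of the 2246 Cpeb3 reads pooled over the 8 libraries, or 84.8%. The 95% Wilson interval of 83.2 to 86.2% covers counting error of the pooled reads and not the spread between hearts. By library the share of this circle ran from 60.0 to 90.5%, and it is called the main circle below. It lies at chr19:37044522-37068291 on the minus strand and joins exons of 119, 115 and 182 nt into a loop of 416 nt, all of it coding. These exons code for residues 503 to 641, in the C-terminal part that binds RNA. Since 416 is not a multiple of 3, a ribosome passing the closing junction would change frame.

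The sequences over the closing junctions show what tells these circles apart. Each line gives, 5' to 3', the last 30 bases of the circle's last exon in lower case and then the first 30 bases of its first exon in capitals, from the GENCODE M21 transcript on mm10, minus strand of chromosome 19. The first circle shares its first exon with the second and its last exon with the third, the fourth ends at the exon where the first begins, and the fifth shares no exon with the first.
Exons 8 to 10: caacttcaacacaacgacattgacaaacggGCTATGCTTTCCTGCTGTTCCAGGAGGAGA
Exons 8 to 9: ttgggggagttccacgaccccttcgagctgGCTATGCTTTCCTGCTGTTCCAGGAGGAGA
Exons 6 to 10: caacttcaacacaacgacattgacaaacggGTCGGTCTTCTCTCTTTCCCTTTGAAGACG
Exons 6 to 8: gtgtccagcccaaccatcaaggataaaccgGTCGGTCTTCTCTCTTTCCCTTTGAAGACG
Exons 3 to 7: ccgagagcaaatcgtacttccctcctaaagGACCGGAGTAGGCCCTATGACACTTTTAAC

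The introns on both sides of the main circle are long. The one before exon 8 has 19246 nt and the one after exon 10 has 19434 nt, which makes them the 4th and the 3rd longest of the 10 introns of the transcript. The introns left inside the span, after exons 8 and 9, have 13798 and 9556 nt. The other 16 circles used the same few borders. Their first exon was exon 3, 4 or 6 in 12 circles and exon 2, 8 or 9 in the others, and their last exon was exon 7, 8, 9 or 10 in all but a circle of exons 3 to 4 and one of exon 2 alone. The 24-nt exon 5, which 5 of the 12 annotated transcripts contain, was never the first or last exon, and 8 circles with 180 reads spanned it. Whether those circles include it is taken from the exon count in the table, since a junction read does not show the inside of a circle. Spliced lengths ran from 217 to 1637 nt with a median of 492 nt, and 8 of the 17 were multiples of 3.

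**Figure D1:**
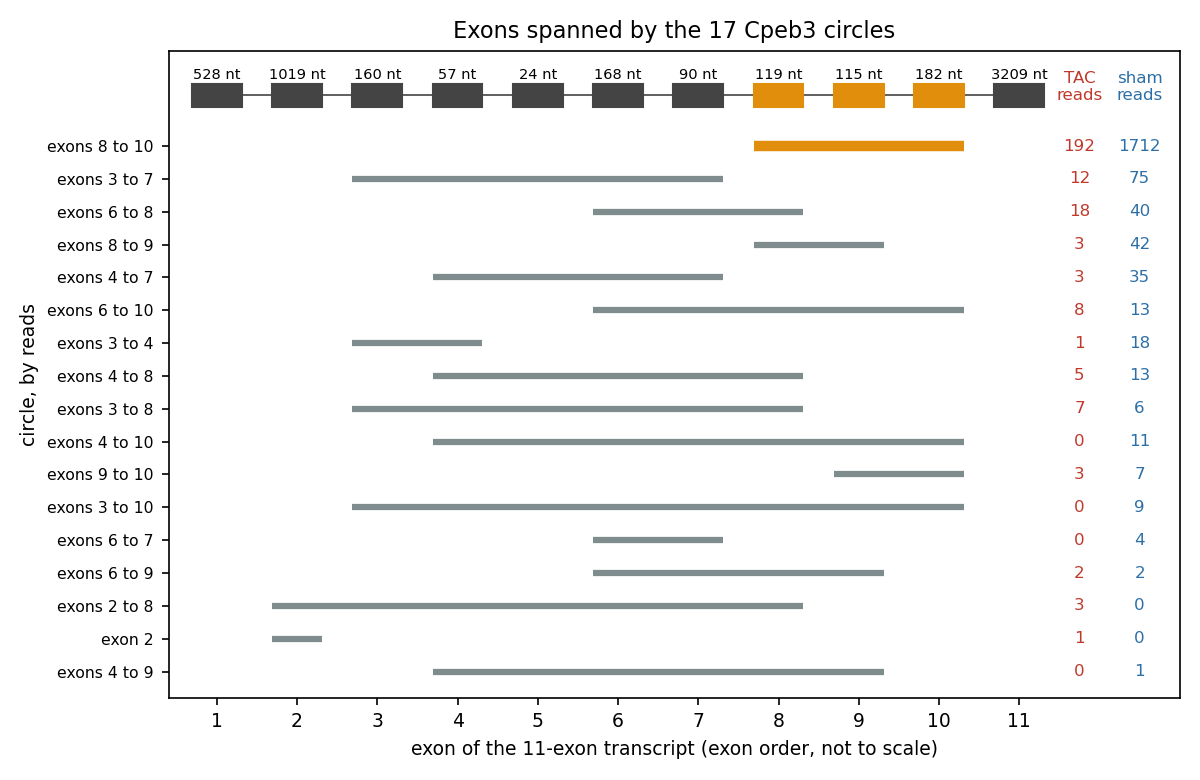
Each bar is 1 of the 17 Cpeb3 circles and covers the exons it spans, along the 11 exons in transcript order (x axis, exon lengths in nt above, not to scale), with its summed reads in TAC (red) and sham (blue) at the right. The circle of exons 8 to 10 (orange) has 192 reads in TAC and 1712 in sham, and no bar reaches exon 1 or exon 11.

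The main circle was present in every library. In normalised reads, the authors' back-spliced reads divided by 1 size factor per library, it stood at 38.7, 17.3, 32.9 and 66.8 in TAC replicates 1 to 4, against 267, 86.3, 125 and 163 in sham replicates 1 to 4. Every TAC library lay below every sham library, with a gap between the highest TAC and the lowest sham value that is small beside the range within the sham group. Behind these values are 52, 3, 32 and 105 reads in TAC and 704, 19, 151 and 838 in sham, so that the lowest value of each group, in its shallow library, rests on 3 reads in TAC and 19 in sham. The group means were 38.9 ± 20.6 in TAC and 160.3 ± 77.7 in sham (SD, n = 4 each), a ratio of 0.243.

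As a share of all back-spliced reads of its library, which needs no size factor, the main circle made up 0.157%, 0.268%, 0.152% and 0.291% in TAC replicates 1 to 4 and 1.73%, 0.479%, 0.844% and 0.837% in sham replicates 1 to 4. The groups did not overlap on this scale either. The 95% Wilson interval of TAC replicate 2, 0.0912 to 0.785%, reached into the range of the sham libraries. Intervals and limits of this kind take in counting error alone. Any PCR copies of a molecule left in the data would be counted as separate reads. By mean level it ranked 39th in TAC hearts and 1st in sham hearts among all circles of the table. Within libraries its rank was 50, 54, 58 and 22 in TAC replicates 1 to 4 and 1, 7, 3 and 4 in sham replicates 1 to 4. The number of different circles also differed between libraries, with 10786, 567, 7770 and 11550 in TAC replicates 1 to 4 and 9081, 1830, 4980 and 5600 in sham replicates 1 to 4, so that the deepest library, sham replicate 4, listed fewer circles than 3 of the TAC libraries. The part of this in the rank and share was not tested. The level is one per heart sample, in which fewer cells of a type and less RNA per cell cannot be told apart.

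**Figure D2:**
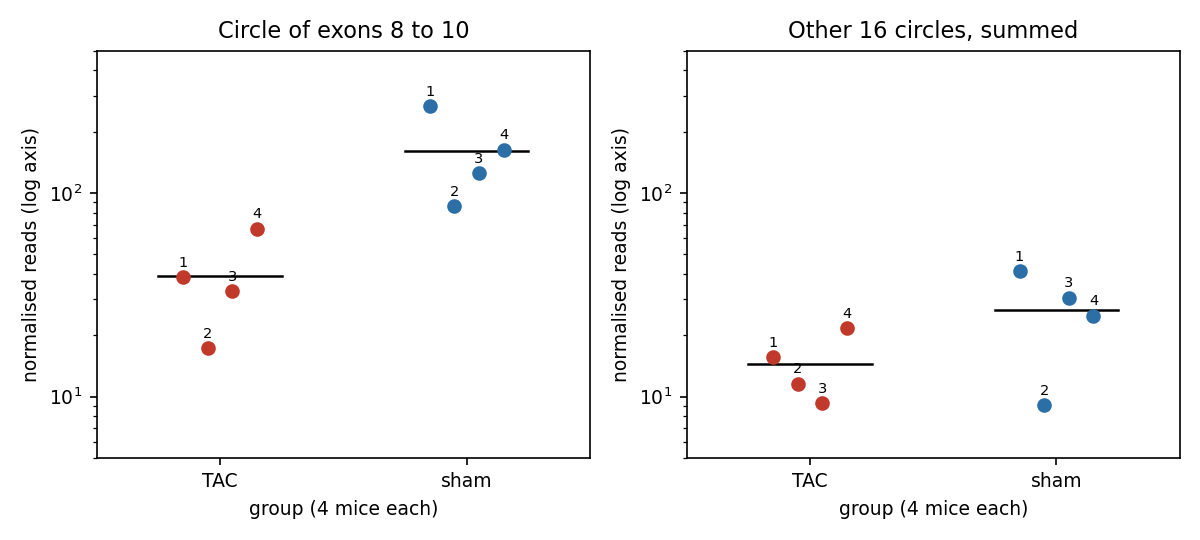
Normalised reads on a log axis of the exon 8 to 10 circle (left) and of the other 16 Cpeb3 circles summed (right) in each TAC and sham library, with the replicate number beside each point and the mean as a line. The TAC points of the main circle lie between 17.3 and 66.8, below all sham points, which lie between 86.3 and 267, while those of the other circles overlap.

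In the limma test over 3735 circles (log2 of the normalised reads plus 0.195, Benjamini-Hochberg adjustment over all of them), the main circle had a log2 fold change of −2.07 ± 0.64 (SE) and an adjusted p of 0.834, and so did not pass the threshold of 0.05. Of the 3735 circles 0.0268% were called, and 2.22% (83) had every TAC library below every sham library as the main circle did. Most of the 3735 are rarer than the main circle. Among the 96 with a mean of at least 20 normalised reads, the main circle included, 7 were separated in this way. Limma called 0 of the 10 Cpeb3 circles it tested and edgeR 0 of 3, while the main circle alone had an unadjusted p under 0.05 in each. Over all circles, 152 of 3735 in limma and 204 of 717 in edgeR had an unadjusted p under 0.05. The edgeR quasi-likelihood test on the recovered reads, which called 13.1% of 717 circles, gave the main circle a log2 fold change of −2.27 ± 0.87 and an adjusted p of 0.0624. Whether the circle passed depended on the method and on the shallow libraries. DESeq2 (−1.99 ± 0.56, adjusted p = 0.0336, 1.68% of circles called) and limma-voom with sample weights (−2.29 ± 0.53, adjusted p = 0.00510, 32.9% called) put the circle past the threshold. So did limma without TAC replicate 2 (−1.74 ± 0.32, adjusted p = 3.6e-05, 1.11% called), without sham replicate 2 (−2.33 ± 0.56, adjusted p = 0.0267, 0.169% called) and without both (−1.99 ± 0.33, adjusted p = 1.3e-07, 11.6% called). In all 27 alternative settings the log2 fold change was negative, between −2.47 and −1.74. The limma SE follows the trend over all circles and not the spread of this circle between mice. Without that trend it was 1.34, a value still drawn toward a variance pooled over all circles, and so no measure of that spread either.

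The size of this difference can be read against other circles. Of the 3735 circles tested, with a median log2 fold change of 0.15, 230, the main circle among them, were at its value or below. Among the 659 others with a spliced length within 10% of its 416 nt the median was −0.01 and 38 were as low or lower. Among the 95 other circles with a mean of at least 20 normalised reads the median was −0.41 and 13 were as low or lower.

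Summed, the other 16 circles of Cpeb3 stood at 15.6, 11.5, 9.26 and 21.6 normalised reads in TAC replicates 1 to 4, against 41.3, 9.09, 30.6 and 24.9 in sham replicates 1 to 4. The groups overlapped through sham replicate 2, which has 2 such reads. The means were 14.5 ± 5.42 in TAC and 26.5 ± 13.5 in sham (SD, n = 4 each), a ratio of 0.548 against the 0.243 of the main circle. Summed over all 17 circles, the gene stood at 53.4 ± 25.5 in TAC and 187 ± 89.6 in sham, a ratio of 0.286.

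Among Cpeb3 reads alone, a measure that does not depend on how libraries are scaled, the share of the main circle was 71.2%, 60.0%, 78.0% and 75.5% in TAC replicates 1 to 4 and 86.6%, 90.5%, 80.3% and 86.7% in sham replicates 1 to 4. Every TAC share lay below every sham share, but TAC replicate 2 has only 5 Cpeb3 reads and a 95% Wilson interval of 23.1 to 88.2%. The mean share was 71.2 ± 8.0% in TAC and 86.0 ± 4.2% in sham (n = 4 each), a difference of −14.8 percentage points with an exact two-sided permutation p of 0.0286, the smallest that 4 against 4 libraries allow. Adjusted over the 4 within-gene measures tested the p was 0.114, which does not pass. The share is built from the same reads as the level for which the gene was picked, so this is no second line of evidence. Without the 2 shallow libraries the difference was −9.61 points, with the groups still apart (exact permutation p = 0.100, the smallest for 3 against 3).

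**Figure D3:**
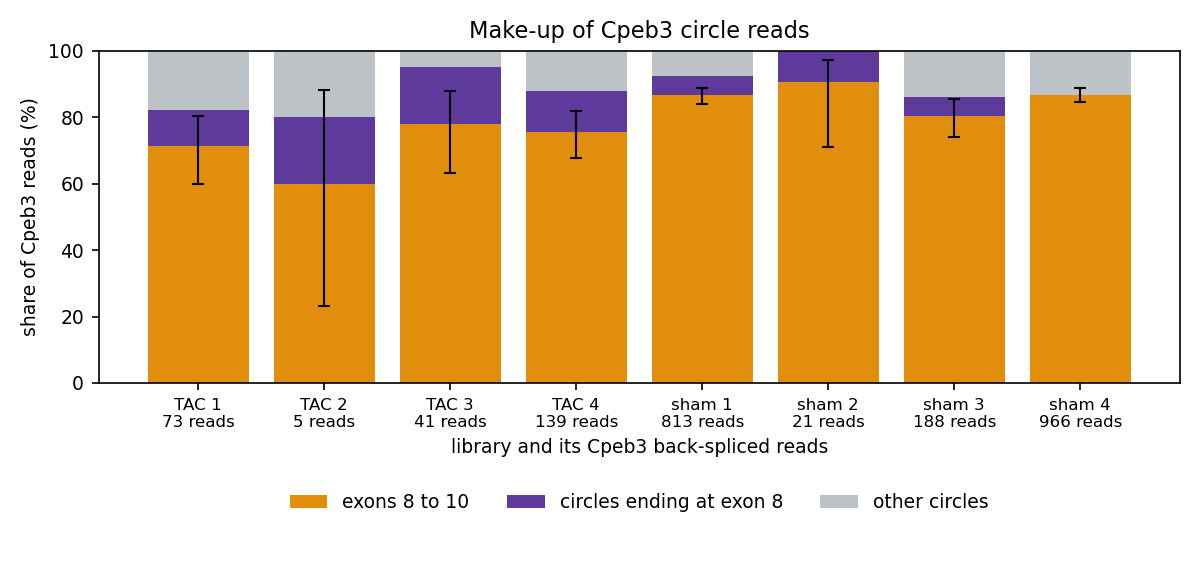
Stacked bars give the share of each library's Cpeb3 back-spliced reads (y axis, percent) held by the circle of exons 8 to 10, by the 4 circles that end at exon 8 and by all others, with the 95% Wilson interval of the first as a black bar and the number of reads under each library. The orange share runs from 60.0 to 78.0% in TAC and from 80.3 to 90.5% in sham, and sham replicate 4 has no circle ending at exon 8.

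The choice of partner for the main circle's own splice sites was nearly fixed in most libraries. Of the reads whose circle starts at exon 8, the share that ended at exon 10 was 98.1%, 75.0%, 97.0% and 100% in TAC replicates 1 to 4 and 97.9%, 100%, 98.1% and 97.2% in sham replicates 1 to 4. The low value in TAC replicate 2 is 3 of 4 reads. The difference of the means, −5.77 points, lay within the spread (exact permutation p = 0.514). Of the reads whose circle ends at exon 10, 92.9 to 100% started at exon 8 in TAC and 96.2 to 100% in sham (means 96.5 ± 2.9% and 98.0 ± 1.7%, exact permutation p = 0.457). The mean spliced length of a Cpeb3 read was 427, 372, 429 and 459 nt in TAC replicates 1 to 4 and 413, 416, 414 and 421 nt in sham replicates 1 to 4. Its difference of 5.22 nt did not pass (exact permutation p = 0.686), and became −7.26 nt without TAC replicate 4. Without TAC replicate 2, which has 5 Cpeb3 reads, it was 21.8 nt, and every TAC value then lay above every sham value (exact permutation p = 0.0571, the smallest for 3 against 4). Without both shallow libraries it was 21.7 nt with the groups likewise apart (exact permutation p = 0.1, the smallest for 3 against 3).

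Circles that end at exon 8, instead of starting there, made up 10.96%, 20%, 17.1% and 12.2% of Cpeb3 reads in TAC replicates 1 to 4, against 5.66%, 9.52%, 5.85% and 0% in sham replicates 1 to 4. This grouping was made after the values were seen and was not tested. The 0 in sham replicate 4 stands out, because that library is the deepest and has 966 Cpeb3 reads, so that a count of 0 allows a share of up to 0.311%. Sham replicate 1, with 813 Cpeb3 reads, had 46 reads of these circles, and TAC replicate 1 had 8 among 73. Sham replicate 4 also listed 8 different Cpeb3 circles where sham replicate 1 listed 13 and sham replicate 3 listed 12.

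The second most frequent circle, of exons 3 to 7 (chr19:37087538-37139221, 499 nt, residues 337 to 503), stood at 2.23, 0, 0 and 5.72 normalised reads in TAC replicates 1 to 4 and 7.58, 0, 3.31 and 9.92 in sham replicates 1 to 4. It ends exactly before the exon at which the main circle starts. Its limma log2 fold change was −1.66 ± 1.60 (adjusted p = 0.870), and the groups overlapped.

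A circle of exons 6 to 8 (chr19:37068173-37088587, 377 nt) was at like levels in the TAC libraries, with 3.72, 5.77, 4.12 and 5.09 normalised reads, and at 13.3, 4.54, 3.31 and 0 in sham replicates 1 to 4. Behind these values are 5, 1, 4 and 8 reads in TAC and 35, 1, 4 and 0 in sham, so the like levels in TAC rest on few reads. The means were 4.67 ± 0.93 in TAC and 5.28 ± 5.66 in sham. It was seen in 7 libraries, more than any Cpeb3 circle other than the main one, and missing in the deepest. Its fold change had no settled sign, 0.90 ± 1.56 on the log2 scale in limma and −0.56 ± 0.79 with edgeR.

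Sharing its first exon with the main circle, the circle of exons 8 to 9 stood at 0.744, 5.77, 1.03 and 0 in TAC replicates 1 to 4 and 5.69, 0, 2.48 and 4.67 in sham replicates 1 to 4. The value of 5.77 in TAC replicate 2 is a single read of that shallow library. Its limma log2 fold change was −0.87 ± 1.59. Without both shallow libraries edgeR called it lower in TAC (−3.14 ± 1.02, adjusted p = 0.0290, 30% of circles called), on 2 reads in TAC and 42 in sham. In TAC, the circle of exons 4 to 7 had 3 reads, all in replicate 1, and in sham it had 35, in replicates 1, 3 and 4. Its limma log2 fold change was −2.55 ± 1.49, which did not pass (adjusted p = 0.834). Without both shallow libraries it did (−3.39 ± 1.15, adjusted p = 0.0324, 11.6% of circles called).

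The remaining circles with 10 or more reads were rare in both groups. Exons 6 to 10 gave a circle that averaged 1.40 ± 1.67 in TAC and 1.18 ± 0.84 in sham, and that of exons 3 to 8 averaged 1.46 ± 1.27 and 1.02 ± 1.57 in the same order. For the circle of exons 3 to 4 the mean was 0.186 ± 0.37 in TAC and 1.13 ± 1.25 in sham, and that of exons 4 to 8 averaged 0.822 ± 1.2 in TAC and 2.61 ± 1.93 in sham. Exons 9 to 10 had 3 reads in TAC and 7 in sham. None of these passed in limma (adjusted p from 0.834 to 0.999).

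A circle of exons 4 to 10 had 0 reads in TAC and 11 in sham, 10 of them in sham replicate 4. Of 258 Cpeb3 reads in TAC, a count of 0 allows a share of up to 1.16%, above the 0.553% that the circle had in sham, so that no difference was detectable at this depth.

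Of the 17 circles 7 were not tested, being above 0 in fewer than 4 libraries. Besides the circle of exons 4 to 10 these were the circles of exons 3 to 10 (0 reads in TAC, 9 in sham), exons 6 to 7 (0 and 4), exons 6 to 9 (2 and 2), exons 2 to 8 (3 and 0), exon 2 (1 and 0) and exons 4 to 9 (0 and 1), TAC being given first in each pair. The circles of exons 2 to 8 and of exon 2 are the ones that reach the start codon. Their 4 reads all came from TAC libraries, 3 from replicate 4 and 1 from replicate 1, too few for a comparison.

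**Figure D4:**
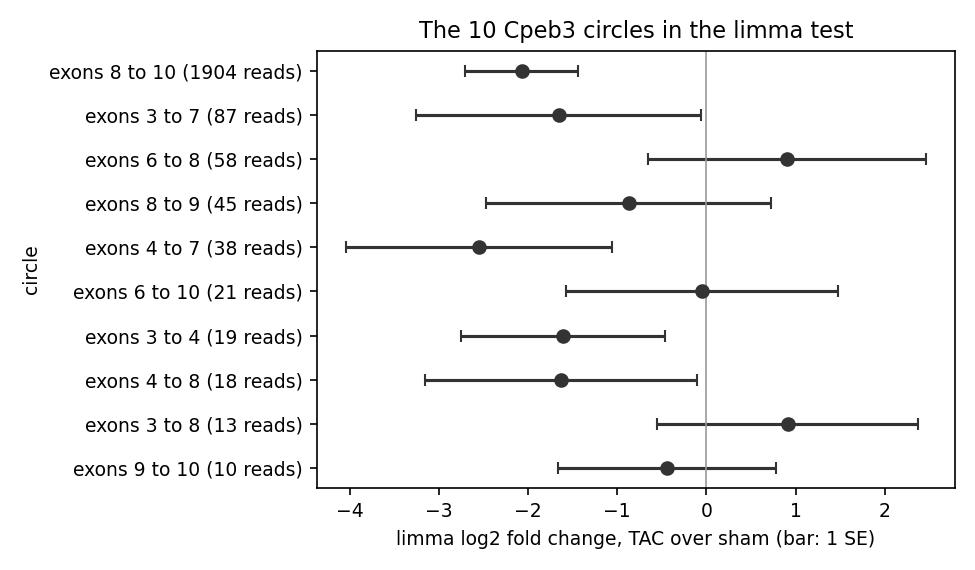
Points give the limma log2 fold change (TAC over sham, x axis) of the 10 Cpeb3 circles tested, ordered by their total reads, with 1 SE as a bar. The main circle has the smallest error, at −2.07 ± 0.64, and none of the 10 passed the test.

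In most genes with many circles the top circle held a smaller share than in Cpeb3. By mean level over the 8 libraries the main circle held 82.9% of the gene's output. Among the 310 genes with at least 10 circles and 100 reads the median share of the top circle was 42.6%, and 16 had a higher share than Cpeb3. In number of circles, 184 of the 6492 host genes had more than Cpeb3.

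The consensus element that CPEB proteins are named for was looked for in the main circle. Neither TTTTAT nor TTTTAAT was found in its 416 nt on either strand, the closing junction included. Of the 659 tested circles of like length, 11.4% held TTTTAT on the sense strand and 10.2% on the other, and 1.37% and 3.64% held TTTTAAT. These are matches of letters in the reference transcript, and their absence says nothing about binding of the protein.

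The other CPEB genes gave few circles. Cpeb1, whose protein drives cytoplasmic polyadenylation in oocytes, had 4 circles with 13 reads, Cpeb2 had 2 with 4 reads and Cpeb4 had 2 with 3 reads, against the 2246 reads of Cpeb3. The Cpeb1 circle at chr7:81372012-81436377 averaged 1.12 ± 1.35 in TAC and 0.0948 ± 0.19 in sham, and the one at chr7:81349792-81357418 averaged 0.761 ± 0.55 and 0.207 ± 0.41 in the same order. The limma log2 fold changes of these circles, 1.72 ± 1.08 and 1.36 ± 1.09, had adjusted p of 0.834 and 0.836.

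Of a list of 65 gene names from poly(A) tail control and translation, 51 had circles (334 in all). The list holds both the older and the newer name of some genes, so fewer than 65 genes stand behind it. From it, 52 circles of 23 genes were tested. Limma called none of the 52 in either direction, beside 0.0268% of all circles, and 3 of the 52 had an unadjusted p under 0.05, as did 152 of all 3735. Their median log2 fold change was 0.19, against 0.15 over all circles tested. EdgeR called 1 higher and 1 lower of the 13 it tested, beside 13.1% of all circles, with a median of −0.13 against −0.02. The higher one came from exons 3 to 5 of Tnrc6a, which encodes a scaffold bound by Argonaute proteins. It stood at 5.95, 0, 4.12 and 4.45 normalised reads in TAC replicates 1 to 4, against 0, 4.54, 0 and 0 in sham replicates 1 to 4, where the 4.54 is 1 read of the shallow library. Its edgeR log2 fold change was 4.17 ± 1.43 (adjusted p = 0.0348) and its limma value 2.36 ± 1.53 (adjusted p = 0.834). Without both shallow libraries edgeR gave 6.29 ± 1.42 (adjusted p = 0.00569, 30% of circles called). That value depends on the prior count, since the 3 sham libraries left had no read of the circle.

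The lower one was the circle of exons 2 to 4 of Cnot6l, a deadenylase of the CCR4-NOT complex that removes poly(A) tails. It stood at 14.9, 5.77, 14.4 and 21.6 normalised reads in TAC replicates 1 to 4, against 59.5, 27.3, 59.6 and 95.9 in sham replicates 1 to 4, with no overlap. Its edgeR log2 fold change was −2.29 ± 0.83 (adjusted p = 0.0473), and its limma value was −2.09 ± 0.93 (adjusted p = 0.834). Without both shallow libraries it passed in edgeR (−2.25 ± 0.38, adjusted p = 0.000802, 30% of circles called) and in limma (−2.05 ± 0.39, adjusted p = 8.6e-06, 11.6% called). Circles of the same pathway did not all lie lower. The exon 2 to 4 circle of Papd7, a poly(A) polymerase, averaged 45.8 ± 9.71 in TAC and 30.2 ± 9.47 in sham. The exon 2 to 4 circle of Pan3, an adaptor of another deadenylase, averaged 13.7 ± 2.46 in TAC and 26.6 ± 9.67 in sham, and the more abundant of those of Cnot2, a scaffold of CCR4-NOT (chr10:116517317-116549175), 10.7 ± 6.42 and 22.0 ± 9.82 in that order. With all 8 libraries none of these 3 passed in limma (adjusted p from 0.909 to 0.929) or in edgeR (adjusted p from 0.258 to 0.845). Without both shallow libraries the Cnot2 circle passed in edgeR (−1.28 ± 0.46, adjusted p = 0.0454, 30% of circles called). It did not pass in limma (−1.19 ± 0.45, adjusted p = 0.0647), and those of Papd7 and Pan3 passed in neither. Another Cnot2 circle (chr10:116527827-116549175) had 175 of its 226 reads in sham replicate 4. With all 8 libraries limma did not call it (−2.14 ± 1.60, adjusted p = 0.834). Without both shallow ones it passed in limma (−2.85 ± 0.62, adjusted p = 0.000165) and in edgeR (−3.19 ± 0.63, adjusted p = 0.00209). In that setting limma called 4 list circles higher and 3 lower, and edgeR 3 and 5.

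The Cnot6l circle was also among the 5 circles of other genes whose log2 levels over the 8 libraries followed those of the main Cpeb3 circle most closely. Among 1427 circles above 0 in at least 6 libraries, Pearson's r with it was 0.966 for a circle of Spag9, a scaffold of JNK signalling, 0.954 for Zpbp, 0.947 for the Cnot6l circle, 0.946 for a circle of Atxn1, the gene mutated in a spinocerebellar ataxia of humans, and 0.931 for Zdhhc20, a palmitoyltransferase. The points share libraries and depth, and the likeness was looked for among many, so it describes these 8 libraries only. The Atxn1 circle (exons 2 to 4) averaged 14.1 in TAC and 32.7 in sham, and those of Spag9, Zpbp and Zdhhc20 averaged 0.849 to 1.08 in TAC and 7.54 to 8.28 in sham, where a single read of a shallow library weighs heavily.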

How the data were processed

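Per the labels, an RNA kit was used to extract circular RNA from hearts, and library preparation was done by a company. The submitters' processing notes name mm10, HISAT2, StringTie and DESeq2. No source used here names the circRNA caller. The deposited values have the unit signal: their steps show that the authors scaled the back-spliced reads of each circle by 1 size factor in each library. Every value (100% within 0.001) was a whole multiple of its library's smallest, which gave back whole reads for all circles. The planned test for normalised values was therefore used.

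Limma 3.58.1 with an intensity trend was fitted over all circles above 0 in at least 4 of 8 libraries, on log2(value + 0.195), where 0.195 is the smallest value above 0. Fold changes of low circles on that scale can be understated. They can also be shifted or reversed by a 0, which counts far below 1 read of a shallow library (5.77 or 4.54). The circle of exons 6 to 8, absent in sham replicate 4, had means of 4.67 in TAC and 5.28 in sham but a limma value of 0.90. Alternatives were edgeR 4.0.16 (TMM, robust) and DESeq2 1.42.0 on recovered reads, limma-voom, other scalings, filters and pseudocounts, and libraries left out. Benjamini-Hochberg adjustment was used, with a threshold of 0.05. Within-gene measures were compared by exact two-sided permutation tests (scipy 1.17.1). Scripts were tested on simulated data. Replicates, taken as separate mice since the labels give 4 per group, were numbered in accession order. Exons, lengths and sequences come from GENCODE M21 (mm10). The sources name no strand protocol, so overlapping and antisense genes were not separated. Members, lists and tests were chosen with earlier results of these data known. Named are Cpeb3 circles with 10 or more reads, the other CPEB genes, 5 further list circles that pass or have the largest means (1 of which is not reported here), and the 5 circles most alike. The Tnrc6a circle was named because edgeR called it, and another Cnot2 circle because it passed without the shallow libraries.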

Additional observations from a re-analysis of the deposited data

Results flagged for a closer look

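Among 36 sets of 4 libraries looked at for a single distant sample, 3 were marked. The mark is set for chance to give about 1 in 20 sets. That rate does not hold for sets of few reads and many values of 0, so the 3 cannot be weighed against it. For the share of exon 8 circles that end at exon 10 in TAC, replicate 2 (75.0%, 3 of 4 reads) lay apart from 97.0 to 100% in the others, with a gap of 0.879 of the range. For the circle of exons 4 to 7 in TAC the gap was 1 times the range, as replicate 1 stood at 2.23 normalised reads and the others at 0. The circle of exons 3 to 4 in TAC had the same gap of 1, with replicate 1 at 0.744 normalised reads, a single read, and the others at 0. A gap of 1 follows whenever 1 library is above 0 and the others are at 0, whatever the value.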

How the results depend on the processing

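The main circle's log2 fold change kept its sign in all 27 settings and passed in 8. It was −1.99 with DESeq2, −2.29 with voom, −1.99 with limma without the 2 libraries under 5000 reads and −2.23 with edgeR without them. With 1 library left out it lay between −2.38 (without TAC replicate 4) and −1.74 (without TAC replicate 2) in limma and between −2.47 (without sham replicate 2) and −1.90 (without sham replicate 1) in edgeR, where it was −1.96 without TAC replicate 2. In place of 0 Cpeb3 circles, DESeq2 called 1 (beside 1.68% of all circles), voom 1 of 3 (32.9%), limma without the shallow libraries 2 of 10 (11.6%) and edgeR without them 2 of 4 (30%). Leaving out 1 library gave 0 to 1. Without TAC replicate 2 it was 1 of 10 in limma (1.11% of all circles called) and 1 of 5 in edgeR. Without sham replicate 2 it was 1 of 10 (0.169%) and 1 of 4 in the same order. In place of 0 circles of the poly(A) list, edgeR called 2 of 13 (beside 13.1% of all circles), voom 4 of 13 (32.9%), limma without the shallow libraries 7 of 48 (11.6%) and edgeR without them 8 of 17 (30%), and with 1 library left out 0 to 5. EdgeR without TAC replicate 2 called 4 of 17, beside 145 higher and 85 lower of all 1216 circles. Without sham replicate 2 it called 5 of 17, beside 145 higher and 103 lower of all 1134. The edgeR fits with libraries left out were chosen after the data were seen. The share difference of −14.8 points was −9.61 without the shallow libraries and −17.1 to −11.1 with 1 library left out, where 4 against 3 libraries allow no exact p below 0.0571. The length difference was −7.26 to 21.8 nt with 1 library left out. The cause was not tested. Scaling to each library's total reads moved the median log2 fold change of all circles to −0.08, against 0.15, and that of the poly(A) list to −0.01, against 0.19, and left the main circle at −2.07. No paired analysis was possible because the labels share no replicate numbers between the groups. Depth limits the rarer circles most, as 6 of the 17 have under 10 reads in all and TAC replicate 2 has 5 Cpeb3 reads.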
